A study of Mus musculus with 6 samples.

Results

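The genes described here encode 10 proteins of the extracellular matrix, namely the matricellular proteins Tnc, Sparcl1, Sparc, Postn and Thbs2, the fibronectin Fn1, the elastic fibre proteins Eln, Fbn1 and Fbln5, and the cross-linking enzyme Lox. They are 10 of the 53797 genes of the deposited comparison and were chosen by name for their place in the matrix, with the group values of this same comparison already known, so that their differences are a description and no test was made on them. The comparison asked how MLO-Y4 cells, an osteocyte-like line of mouse origin, respond to low-intensity pulsed ultrasound (LIPUS). The LIPUS group held 3 cultures stimulated for 20 min at 1.5 MHz and 30 mW/cm2 in pulsed mode, and the Control group held 3 untreated cultures. All cultures were grown on collagen-coated plates in medium with serum. According to the methods, control wells sat in the same plate as LIPUS wells above transducers that were disconnected, and RNA was taken 30 min after the stimulation ended. All cultures come from the same line, so the values describe MLO-Y4 cells and not osteocytes in bone.

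Matricellular proteins are secreted into the matrix but serve mainly to change how cells attach and signal, and many of them are made at sites of repair or mechanical load. Elastic fibres form on microfibrils of fibrillin, onto which tropoelastin is laid with the help of fibulins and then cross-linked by lysyl oxidases. Fibronectin forms fibrils that are pulled out by cells through integrins and that hold several of these proteins. In bone, such proteins lie beside collagen in the matrix in which osteocytes are embedded.

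Each group has a single FPKM value per gene (fragments scaled by exon length and by the mapped reads of the library), pooled over its 3 libraries by the authors. No value of a single library, no spread between cultures and no read depth was analysed here, so no error can be set beside a value. A gene was called higher or lower when its ratio reached 1.5-fold, computed with 0.1 FPKM added to both values, and the same call over all genes is given as the background. A ratio on this scale understates the difference of genes at low level. The study describes a Control replicate that stood apart from the rest of its group, and raises leakage of ultrasound into control wells of the same plate. Every ratio below rests on the pooled Control value that includes this replicate, and values without it could not be computed from pooled levels. In bulk RNA, fewer cells of a type and less RNA per cell cannot be told apart.

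Among the 10 genes, Sparcl1, Fbln5 and Tnc were higher with LIPUS, Postn was lower, and 5 of the other genes lay within 1.5-fold. Eln, the last of them, had a mean below 1 FPKM and was not counted, so 9 genes passed the filter on low values. Of all 11536 genes that passed the same filter, 7.46% were called higher and 8.08% lower. The members were chosen with these values known, so nothing is read from the comparison of their counts with this background. The median log2 ratio of the 9 genes was 0.08, beside -0.0018 over all genes that passed. Cuffdiff, the authors' comparison program, marked 8 of the 10 genes as tested, and gave no test to Postn and Eln.

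**Figure D1:**
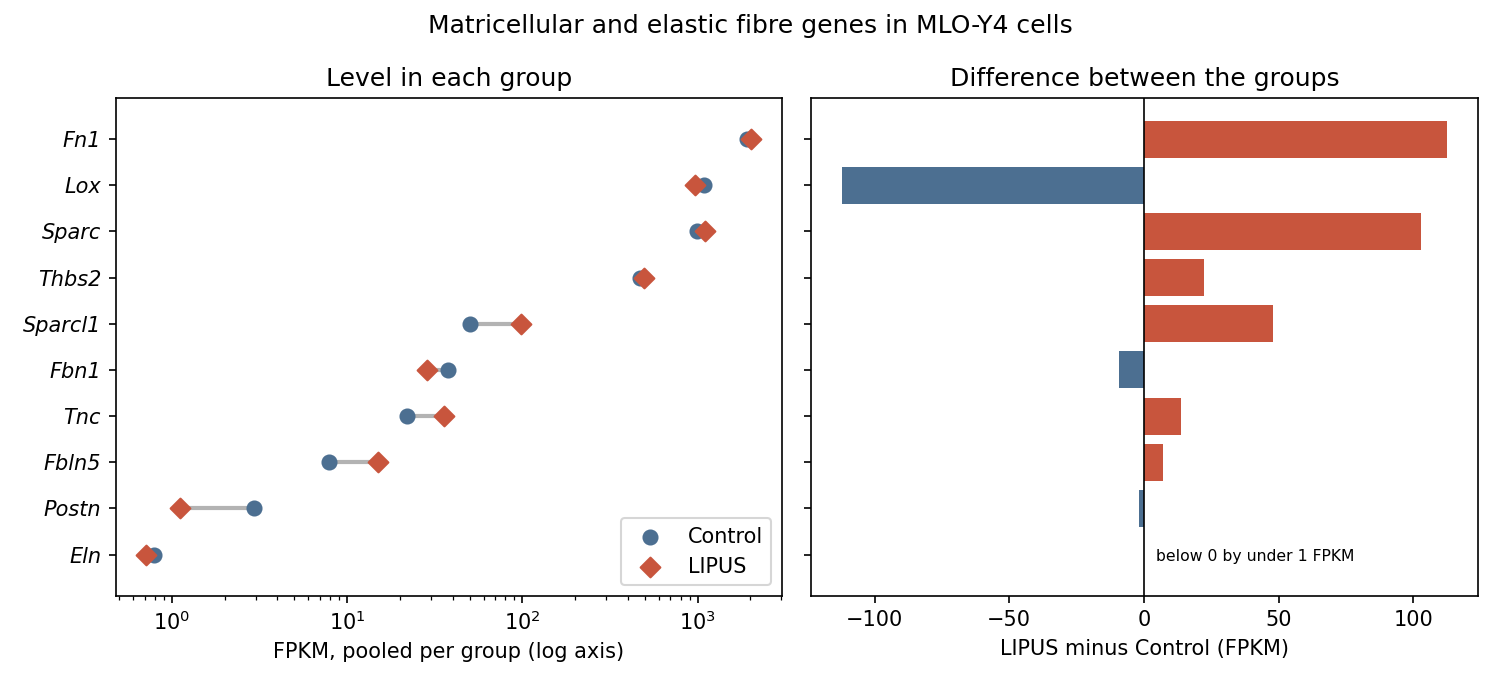
The left panel plots the pooled FPKM of each member in Control (circles) and LIPUS (diamonds) on a log axis, and the right panel the difference LIPUS minus Control in FPKM. Sparcl1, Fbln5, Tnc and Postn have the widest gaps on the log axis, followed by Fbn1, while the widest bars belong to Fn1, Lox and Sparc. There is 1 value per group and no error bar.

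Sparcl1 encodes a secreted, collagen-binding relative of Sparc that is also called hevin. Its level was 50.2 FPKM in Control and 98.1 FPKM in LIPUS, a log2 ratio of 0.97, or 1.95-fold. Among the 6736 genes with a mean of at least 10 FPKM, it ranked 55 by its ratio in favour of LIPUS. Fbln5 encodes fibulin-5, which binds tropoelastin and integrins and is needed for elastic fibres to form. It measured 7.90 FPKM in Control and 15.1 FPKM in LIPUS, a log2 ratio of 0.92, or 1.90-fold. Tnc encodes tenascin-C, a large glycoprotein that weakens the attachment of cells to fibronectin. It measured 22.1 FPKM in Control and 35.8 FPKM in LIPUS, a log2 ratio of 0.69, or 1.62-fold. In the same ranking Fbln5 stood at 69 and Tnc at 154. These 3 genes have different positions in the order of levels, but all lay in the middle range, with means between 10 and 100 FPKM. In this range 3.53% of 5784 genes were called higher and 3.68% lower, and the only other member in it was Fbn1. Fbln5, at 7.90 FPKM in Control, entered this range and the ranking only through its LIPUS value. Between 1 and 10 FPKM, where its Control level lies, 13.1% of 4800 genes were called higher.

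Postn encodes periostin, a matricellular protein of the periosteum and the periodontal ligament. It measured 2.94 FPKM in Control and 1.11 FPKM in LIPUS, a log2 ratio of -1.33, or 2.52-fold lower. This was the largest ratio among the members, at the second lowest level. Between 1 and 10 FPKM, 13.1% of 4800 genes were called higher and 14.6% lower, several times the shares above that level. With 1 FPKM added to both values in place of 0.1, the log2 ratio of Postn was -0.90.

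The upstream sequences of Tnc and Fbln5 are shown because these genes were higher with LIPUS, that of Postn because it was lower, and that of Thbs2 because it was abundant and nearly equal in both groups. RefSeq windows on GRCm38.p6, from 250 bases before to 50 bases after an annotated start, were at hand for 6 of the 10 genes, namely Tnc, Fbln5, Postn, Fbn1, Sparc and Thbs2, with 9 windows in all. For Sparcl1, Fn1, Eln and Lox no window was used. The 250 bases before the start are given 5′ to 3′ on the strand of the gene, for Tnc from chr4:64047016-64047265 (minus strand), for Fbln5 from chr12:101819120-101819369 (minus strand), for Postn from chr3:54360857-54361106 (plus strand) and for Thbs2 from chr17:14694263-14694512 (minus strand). Of the pairs of annotated starts, the upstream one is shown for Tnc and Fbln5 and the downstream one for Postn, where the match lies. No exon of the GENCODE M21 annotation overlaps these stretches. Capitals mark matches to the Egr motif or the TATA box, and in Thbs2 the match reads on the opposite strand.
Tnc: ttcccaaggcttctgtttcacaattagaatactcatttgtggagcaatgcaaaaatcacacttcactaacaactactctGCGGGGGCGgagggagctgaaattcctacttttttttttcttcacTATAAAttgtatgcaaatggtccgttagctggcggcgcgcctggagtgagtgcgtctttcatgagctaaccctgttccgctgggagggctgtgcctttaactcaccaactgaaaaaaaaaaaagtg
Fbln5: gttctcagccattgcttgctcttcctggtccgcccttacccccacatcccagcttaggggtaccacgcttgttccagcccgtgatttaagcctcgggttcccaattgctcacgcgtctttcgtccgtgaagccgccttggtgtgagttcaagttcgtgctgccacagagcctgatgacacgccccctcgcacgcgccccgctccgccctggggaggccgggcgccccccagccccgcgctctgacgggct
Postn: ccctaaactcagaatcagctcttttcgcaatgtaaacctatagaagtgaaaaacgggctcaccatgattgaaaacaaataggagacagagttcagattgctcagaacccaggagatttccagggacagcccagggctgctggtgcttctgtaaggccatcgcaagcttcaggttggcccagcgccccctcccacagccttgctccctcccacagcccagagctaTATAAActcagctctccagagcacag
Thbs2: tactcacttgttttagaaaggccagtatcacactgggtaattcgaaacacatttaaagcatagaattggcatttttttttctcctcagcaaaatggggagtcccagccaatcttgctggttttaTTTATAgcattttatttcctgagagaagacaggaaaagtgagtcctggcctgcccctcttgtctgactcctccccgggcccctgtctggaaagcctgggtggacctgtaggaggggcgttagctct

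The 9 windows were searched on both strands for a set of short motifs. The letters were TGANTCA for AP-1, GCGNGGGCG for Egr factors, GGAATG for TEAD factors, TGACGTCA for CRE-binding factors and TATAAA for the TATA box. The CArG box, the motif of serum response factor, was searched by its usual consensus. These motifs belong to factors that respond early to serum or load, apart from the TATA box, which places the start of transcription. Tnc was the only gene of the 6 with a match to the Egr motif, from base -171 to base -163 before the upstream start, and 5.55% of all 32851 windows hold such a match. The same match lies in the window of the other annotated start of Tnc, since both windows overlap. TATAAA was found from base -126 to base -121 before the upstream start of Tnc. It was found from base -26 to base -21 before the downstream start of Postn. In Thbs2 it lay on the opposite strand, from base -126 to base -121, and 13.6% of all windows hold it. Only the match of Postn lies close to its start, and whether any of them places a start was not tested. Other forms were not searched, such as the letters tatataag shortly before the downstream start of Tnc. The window of the upstream start of Postn held none of the letters searched. The windows of Fbln5, Fbn1 and Sparc held none of the letters searched. No match to AP-1, TEAD, CRE or the CArG box was found in any of the 9 windows, while 7.81%, 14.7%, 1.79% and 1.63% of all windows hold these motifs. A match is a description of letters, and says nothing about the binding of a factor in these cells. The share of G and C was 47.3% and 54.0% in the upstream and downstream windows of Tnc, 65.7% and 48.7% in those of Fbln5 and 40% and 53.0% in those of Postn. It was 48.3% in the window of Thbs2, beside a median of 52.7% over all windows, so Tnc, Fbln5 and Postn each had a window on either side of the median.

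**Figure D2:**
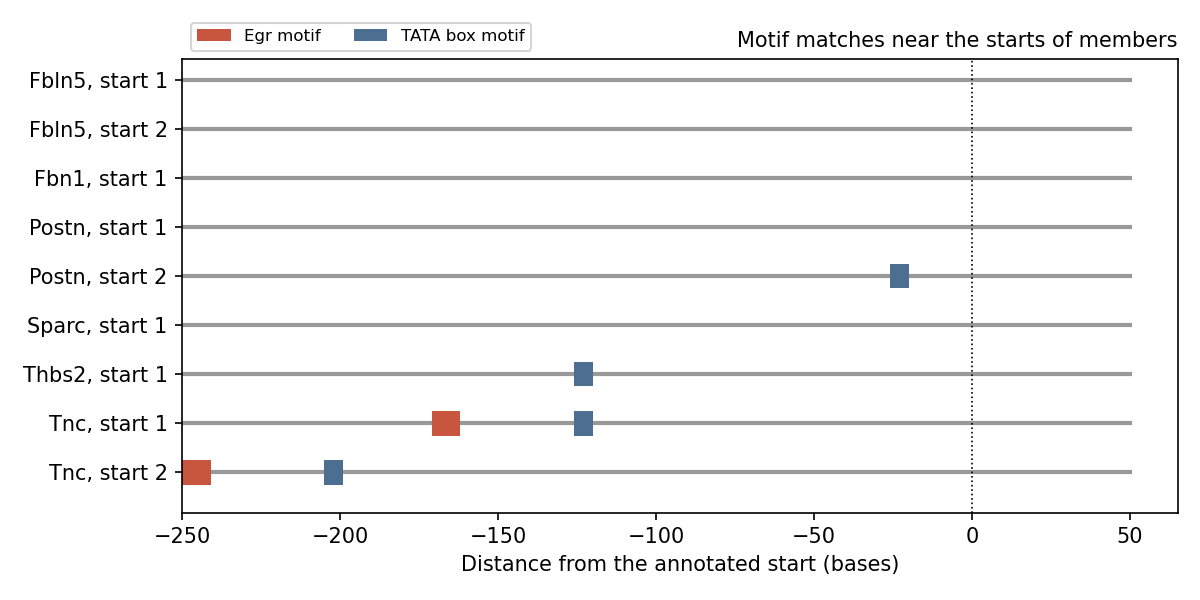
Each line is a window from 250 bases before to 50 bases after an annotated start of a member (dotted line at the start), with matches to the Egr motif in red and to the TATA box in blue; start 1 is the start farthest upstream. Both windows of Tnc hold the Egr match, at base -171 from start 1, and the windows of Fbln5, Fbn1 and Sparc hold no match.

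The 4 most abundant members lay close to a ratio of 1. Fn1, which encodes fibronectin, measured 1915 FPKM in Control and 2028 FPKM in LIPUS, a log2 ratio of 0.08. It ranked 24 in Control and 26 in LIPUS among the 11536 genes by level. Lox, the lysyl oxidase that cross-links collagen and elastin, measured 1084 FPKM in Control and 972 FPKM in LIPUS, a log2 ratio of -0.16. Sparc, which encodes osteonectin, a collagen-binding and calcium-binding protein abundant in bone, measured 998 FPKM in Control and 1101 FPKM in LIPUS, a log2 ratio of 0.14. Thbs2, which encodes thrombospondin-2, a protein that shapes collagen fibrils and limits the growth of vessels, measured 469 FPKM in Control and 491 FPKM in LIPUS, a log2 ratio of 0.07. None of these 4 reached 1.5-fold, in a range where 3.05% of 952 genes with a mean of at least 100 FPKM were called higher and 1.68% lower. Lox and Sparc exchanged places in the order of levels between the groups, by differences that have no replicate check.

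Fbn1 encodes fibrillin-1, the main protein of microfibrils. It measured 37.8 FPKM in Control and 28.5 FPKM in LIPUS, a log2 ratio of -0.41, or 1.33-fold lower, short of the 1.5-fold call. Eln, which encodes tropoelastin, measured 0.791 FPKM in Control and 0.710 FPKM in LIPUS. The elastic fibre genes therefore lay at very different levels, with the core protein of the fibre lowest of all members and the cross-linking enzyme among the highest.

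In absolute terms the order was another. The difference LIPUS minus Control was 113 FPKM for Fn1, -112 FPKM for Lox and 103 FPKM for Sparc, although none of these was called. It was 47.9 FPKM for Sparcl1, 13.7 FPKM for Tnc and 7.18 FPKM for Fbln5. Summed over the 10 genes, the level was 4588 FPKM in Control and 4771 FPKM in LIPUS, 1.04-fold higher. Fn1, Lox, Sparc and Thbs2 made up 97.3% of this sum in Control and 96.2% in LIPUS. The genes called therefore made up a small part of the total of these transcripts.

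**Figure D3:**
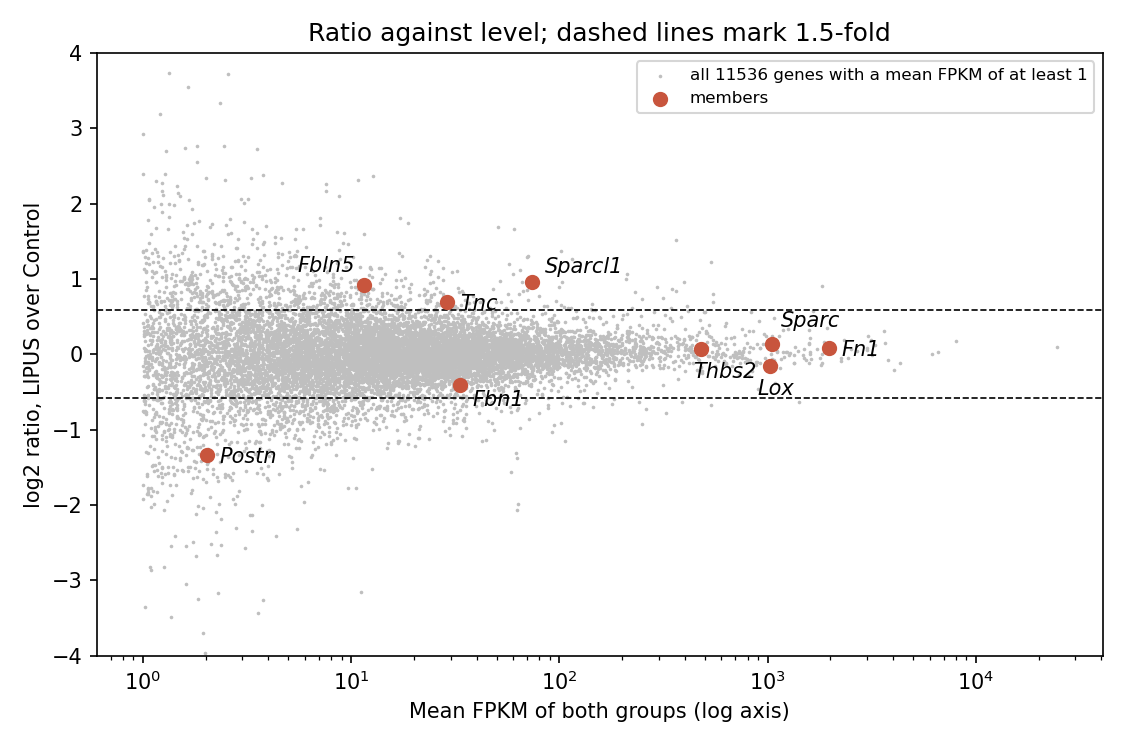
Each grey point is 1 of the 11536 genes with a mean of at least 1 FPKM, with the mean FPKM of both groups on a log axis and the log2 ratio LIPUS over Control; red points are the 9 members that pass this filter, dashed lines mark 1.5-fold, and 75 genes lie beyond the axis. Grey points spread more widely toward low levels, where Postn lies, and Sparcl1, Fbln5 and Tnc lie above the upper line.

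Close relatives of the members did not all lie on the same side. Of the SPARC family, Sparc was 19.9-fold above Sparcl1 in Control and 11.2-fold above it in LIPUS, as Sparcl1 alone was called higher. Smoc1, a relative that acts as an antagonist of BMP, measured 1.73 FPKM in Control and 0.799 FPKM in LIPUS, at a level that Cuffdiff did not test, while Fstl1 and Smoc2 lay within 1.5-fold. Of the tenascins, Tnn, which encodes tenascin-W, a tenascin of developing bone, measured 39.2 FPKM in Control and 19.9 FPKM in LIPUS, a log2 ratio of -0.97. Tnn was thus 1.78 times the level of Tnc in Control and 0.557 times its level in LIPUS. Tnr was listed at 0 in both groups, and Tnxb lay near 0. Of the thrombospondins, Thbs1 measured 902 FPKM in Control and 1065 FPKM in LIPUS and Thbs3 measured 25.2 FPKM and 20.4 FPKM, so that these lay within 1.5-fold, as did Thbs2.

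Of the fibulins, Fbln7 was called higher beside Fbln5, with 12.6 FPKM in Control and 21.4 FPKM in LIPUS, a log2 ratio of 0.76. The other 4 fibulins with a mean of at least 1 FPKM, Fbln1, Fbln2, Efemp1 and Efemp2, lay within 1.5-fold, with log2 ratios from -0.20 for Fbln2 to 0.30 for Efemp1. They were more abundant than Fbln5, and Efemp2, which encodes fibulin-4, stood 47.0-fold above it in Control and 27.0-fold in LIPUS. Ltbp4, which encodes a protein that holds latent TGF-beta and takes part in elastic fibre formation, measured 2.81 FPKM in Control and 5.78 FPKM in LIPUS, a log2 ratio of 1.01 at a low level that Cuffdiff did not test. Ltbp1, Ltbp2 and Ltbp3 lay within 1.5-fold. Fbn2, Mfap2 and Mfap4, which encode other proteins of microfibrils, were listed at 0 in both groups, and Mfap5 was listed at 0 in Control and at 1.21 FPKM in LIPUS. Of the lysyl oxidases, Loxl1, Loxl2, Loxl3 and Loxl4 lay within 1.5-fold like Lox, with log2 ratios from -0.40 for Loxl4 to 0.46 for Loxl3.

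**Figure D4:**
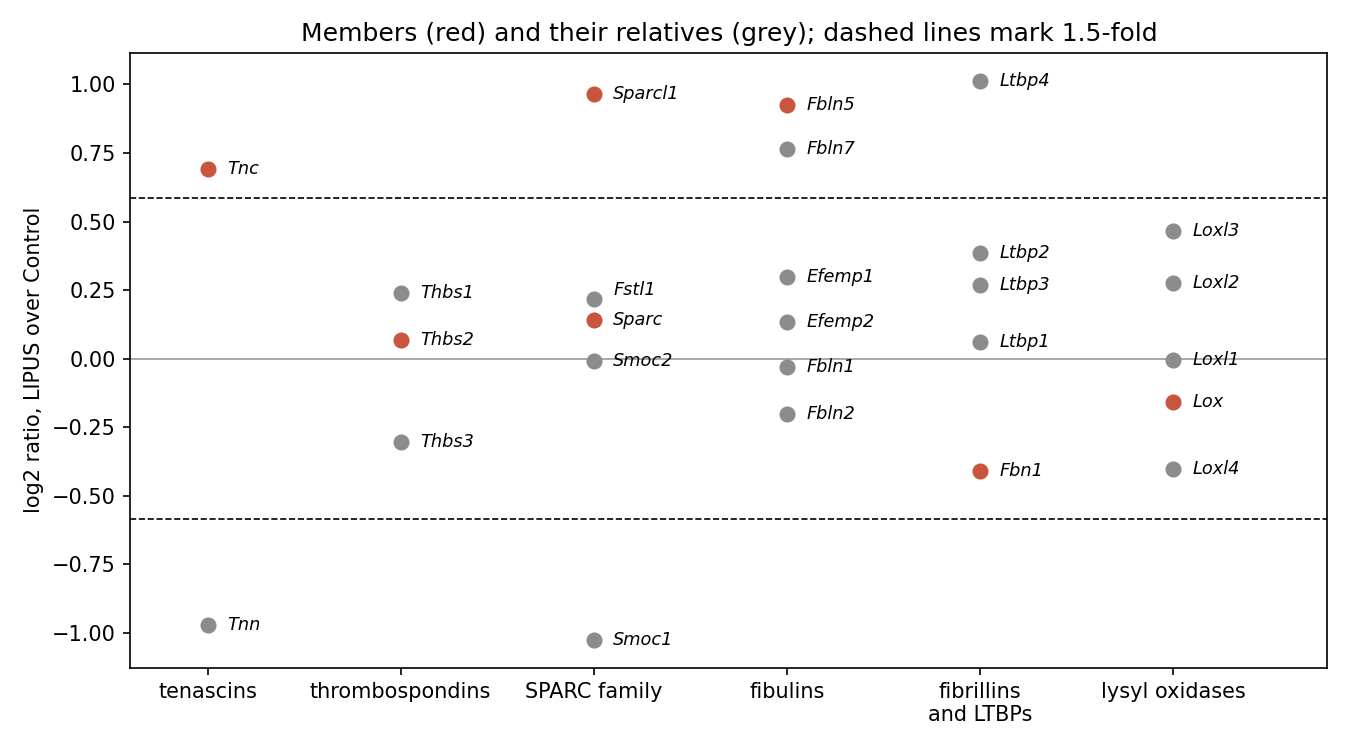
Points give the log2 ratio LIPUS over Control of members (red) and their relatives (grey) with a mean of at least 1 FPKM, by gene family, and dashed lines mark 1.5-fold. Tnc and Tnn lie on opposite sides, Sparcl1 lies above and Smoc1 below the other SPARC relatives, and the thrombospondins and lysyl oxidases lie between the lines.

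Counted over 4 lists chosen by function, 37 of 54 further genes had a mean of at least 1 FPKM, and of these 2 were called higher, 3 lower and 32 neither. Beside 7.46% of all genes called higher and 8.08% called lower at this level, these counts are near the background. The 15 other matricellular genes had 8 above this level, with 0 higher and 2 lower (Tnn and Smoc1), and a median log2 ratio of -0.06. Spp1, which encodes osteopontin, was the most abundant of them with 4514 FPKM in Control and 4158 FPKM in LIPUS. The 16 other elastic fibre and microfibril genes had 11 above it, with 2 higher (Fbln7 and Ltbp4), 0 lower and a median of 0.13, and their most abundant gene was Efemp2 with 371 FPKM and 407 FPKM. The 11 enzymes that cross-link or process matrix proteins had 10 above it, with 0 called in either direction and a median of -0.008, and Pcolce, an enhancer of procollagen processing, was the most abundant with 703 FPKM and 698 FPKM, followed by Plod3, a lysyl hydroxylase, with 201 FPKM and 231 FPKM. The 12 receptors of the member proteins had 8 above it, with 0 higher, 1 lower and a median of 0.12. The lower receptor gene was Cd47, which encodes a receptor of thrombospondins, with 27.0 FPKM in Control and 17.9 FPKM in LIPUS, just past the limit at 1.50-fold. With 1 FPKM added to both values in place of 0.1, Cd47 was no longer called. Itga5, which encodes a chain of the main fibronectin receptor, was the most abundant receptor gene and measured 545 FPKM in Control and 709 FPKM in LIPUS, a log2 ratio of 0.38. Sdc4, which encodes a syndecan that binds fibronectin, measured 259 FPKM and 338 FPKM, also a log2 ratio of 0.38.

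Beside 2 other matrix groups, the CCN family had 2 of its 4 genes above this level called higher, and the small leucine-rich proteoglycans had 1 higher and 1 lower of 6. The shares over all genes at this level were 7.46% higher and 8.08% lower, and 3.05% and 1.68% from 100 FPKM up, where Ctgf, Cyr61 and Dcn lie. Ctgf and Cyr61, the CCN genes called, had log2 ratios of 0.90 and 0.96, close to those of Fbln5 and Sparcl1. Dcn, which encodes decorin, had a log2 ratio of 1.52, above that of any member, while Fmod, which encodes fibromodulin, had one of -0.64 and Bgn, which encodes biglycan and is the most abundant of them, one of -0.18. Without values of single libraries, whether these groups differ from the matricellular and elastic fibre genes was not tested.

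On GRCm38, Tnc spans bases 63959785 to 64047015 of chromosome 4 (87231 bases), Fbln5 bases 101746565 to 101819055 of chromosome 12 (72491 bases) and Sparcl1 bases 104079111 to 104113733 of chromosome 5 (34623 bases), all on the minus strand. Postn spans bases 54361109 to 54391037 of chromosome 3 on the plus strand. The longest coding sequence measured 6330 bases over a transcript of 26 exons in Tnc, 1383 bases over 11 exons in Fbln5 and 1950 bases over 11 exons in Sparcl1. Exons covered 8.91% of the Tnc gene, 9.53% of Fbln5, 8.48% of Sparcl1 and 29.1% of Postn, and from 5.85% in Fbn1 to 34.6% in Lox among the other members. All members but Postn lie on the minus strand. Members within 1.5-fold covered the range of gene lengths, from 13801 bases in Lox to 207400 bases in Fbn1.

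Reads shared with other genes could affect some members. Of the stretches of 50 bases in annotated transcripts, 0.60% in Sparc and 0.59% in Fn1 occur in other genes on the same strand. On the opposite strand the share was 0.50% in Sparc, 2.41% in Fn1 and 2.80% in Eln. No stretch of 50 bases in the annotated transcripts of Sparcl1, Fbln5, Postn, Lox or Thbs2 occurs in transcripts of another gene on either strand, so Sparcl1 and Sparc share none. Tnc shares 1.04% of its stretches with 8030451A03Rik on the opposite strand, a gene listed at 0.580 FPKM in Control and 0.858 FPKM in LIPUS. Fbn1 shares 2442 exonic bases, 20.1% of its exonic length, with Gm9913 on the opposite strand, which measured 5.05 FPKM in Control and 2.95 FPKM in LIPUS. Fn1 shares 292 exonic bases with Apol7d on the opposite strand, which measured 113 FPKM and 107 FPKM. The libraries were made with a stranded kit, but whether FPKM used the strand is not given in the sources used here, and the part of such reads in the values was not tested. The overlapping genes 8030451A03Rik, Gm9913 and Apol7d were named after their values were seen.

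By distance in the plane of the log2 levels of both groups, the genes most like Tnc were Dnajb1, Tprgl and Sfrp4, at distances of 0.019, 0.063 and 0.069. Those most like Fbln5 were Cyba, Fes and Aamdc, at 0.022, 0.032 and 0.052. Sparcl1 had no gene as near, and the closest were Gm16567, Foxs1 and Klf10, at 0.11, 0.18 and 0.20. Those most like Postn were Gm13205, Lrrc1 and Aldoa, at 0.021, 0.037 and 0.044. Such likeness rests on 2 group values and is a description only.

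The labelled cell type was checked against markers. Of 7 osteocyte markers, Sost, Mepe and Fgf23 were listed at 0 in both groups, Phex was near 0, and Pdpn, Gja1 and Dmp1 were detected, of which Dmp1 was called higher, with a sum over the list of 475 FPKM in Control and 579 FPKM in LIPUS. Dmp1 lies between 1 and 10 FPKM, where 13.1% of all genes were called higher. The 5 osteoblast markers summed to 1215 FPKM and 941 FPKM, and 3 of the 4 with a mean of at least 1 FPKM (Alpl, Runx2 and Sp7) were called lower, while Col1a1, the most abundant, had a log2 ratio of -0.29. Over all genes at this level 8.08% were called lower. The share was 1.68% from 100 FPKM up, where Alpl lies, and 3.68% from 10 to 100 FPKM, where Runx2 lies. It was 14.6% from 1 to 10 FPKM, where Sp7 lies, which Cuffdiff did not test. Bglap, the fifth marker, was listed at 0 in Control and at 1.58 FPKM in LIPUS, with a mean below 1 FPKM. The summed levels of 4 chondrocyte markers were 10.9 FPKM and 9.26 FPKM, of 4 haematopoietic markers 13.5 FPKM and 12.4 FPKM, of 3 endothelial markers 0.496 FPKM and 0, and of 3 smooth muscle markers 3.08 FPKM and 1.92 FPKM. Ptprc, Itgam, Cdh5 and Kdr, defining genes of blood and vessel cells, were listed at 0 in both groups. Detected at low levels were Cd68 and Cd14, Col2a1 and Col10a1, and Cnn1, of which Cd68 and Cnn1 were called lower, with log2 ratios of -1.57 and -0.71, at levels of 1 to 10 FPKM where 14.6% of all genes were called lower. The part of these markers in the values of the members was not tested.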

How the data were processed

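MLO-Y4 RNA libraries of 3 LIPUS and 3 Control cultures were represented by a table in the layout of Cuffdiff. The authors deposited FPKM pooled per group. Per the submitters' notes, reads were trimmed with Trimmomatic 0.36 and aligned to GRCm38 with TopHat2 2.1.0 and Bowtie2 2.2.6.0, and FPKM came from Cufflinks 2.1.1. The methods name another version of it, with Ensembl transcripts. The deposited table also holds the authors' own fold changes, test statistics, p-values, q-values and calls, which were not used, apart from the mark of whether a gene was tested. With 1 value per group no SD, interval or test was possible. The methods give a common round number of reads per sample, and the depth of each library was not analysed here.

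Ratios were computed as log2((LIPUS + 0.1)/(Control + 0.1)) and called at 1.5-fold among genes with a mean of both groups of at least 1 FPKM. Symbols come from the table. Structure came from GENCODE M21, stretches of 50 bases from its transcripts and promoter windows from RefSeq, all on GRCm38. The members and lists were chosen with earlier results of these data known. Named were the members, genes of the lists that were called or among the 2 most abundant, and the 3 genes most like each called member. Beyond this rule, relatives of the members, genes at 0, other markers, neighbours and overlapping genes were named after their values were seen. Protein sequences were not used here. Alternatives were pseudocounts of 0 and 1, 3 rescalings, other filters, and limits of 0.32 (log2) and 2-fold. Only the ratio and the 1.5-fold call were run on simulated data, with planted 2-fold changes and little noise. Recovery was certain under those settings, so that run says nothing about noise in these data. Python 3.11.15, numpy 2.4.6, pandas 2.3.3 and matplotlib 3.10.9 were used.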

Additional observations from a re-analysis of the deposited data

How the results depend on the processing

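Sparcl1, Fbln5 and Tnc were called higher under every pseudocount and rescaling tried. The filters select which genes are counted and leave each ratio as it is, so no filter could reverse these calls. All 3 genes passed every filter, Fbln5 the one of 10 FPKM only through its LIPUS value. With a limit of 2-fold, 0 members were called higher, beside 2.64% of all genes, and 1 (Postn) lower, beside 2.96%. Postn stayed the only lower member under every pseudocount and rescaling and without a filter, while 0 members were lower with a mean of at least 10 FPKM or among genes marked as tested, which leave Postn out. With a log2 limit of 0.32 in place of 0.58, 2 were lower, adding Fbn1, beside 17.7% of all genes, and 16.7% were higher. Of the 50 member ratios under other pseudocounts and rescalings, 49 lay within 0.1 of the reported log2 value. Over the 4 further lists, 6 genes were higher and 6 lower at the limit of 0.32, near those shares, 1 and 1 at 2-fold, and 1 was higher with a mean of at least 10 FPKM. With a pseudocount of 1, 2 were lower, as Cd47 was lost. The median log2 ratio of the members ranged from 0.04 with equal sums of FPKM to 0.11 among genes with a mean of at least 10 FPKM. Rescaling to equal sums moved the median of all genes to -0.05. No paired analysis was possible because the table holds pooled values per group, and leaving out a replicate could not be run for the same reason.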

Other observations

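Sparcl1 lies beside a cluster of genes for mineral-binding phosphoproteins on chromosome 5, and was looked at with its neighbours after its value was seen. Of the 9 genes within 500 kb of Sparcl1 with a mean of at least 1 FPKM, 1 was called higher and 0 lower, beside 7.46% higher and 8.08% lower over all genes at this level. The higher gene was Dmp1, which encodes a matrix protein of osteocytes, 88.9 kb away, with 3.04 FPKM in Control and 7.65 FPKM in LIPUS, a log2 ratio of 1.30, in the range of 1 to 10 FPKM where 13.1% of all genes were called higher. Spp1, at 321 kb, had a log2 ratio of -0.12. Dspp, Ibsp and Mepe, which lie between Dmp1 or Sparcl1 and Spp1, were listed at 0 in both groups. Of the other called members, Tnc and Fbln5 had 4 such neighbours each, with 0 called in either direction, and Postn had 6, with 1 lower. This was Smad9, with 9.34 FPKM in Control and 5.19 FPKM in LIPUS. Among the members that were not called, Eln had 17 such neighbours, with 2 higher and 0 lower, Lox had 1 with 0 called, and Sparc, Fn1, Fbn1 and Thbs2 had 1 lower each and 0 higher. Nothing particular to any member is read from these counts, which are small and stand beside the shares over all genes given above.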
